A study of Mus musculus with 12 samples.

Results

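Genes of fatty acid oxidation, cholesterol efflux and lipid storage were measured by RNA sequencing in murine macrophages with and without the microRNA miR-210. The group held 31 genes, chosen by name from the mitochondrial beta-oxidation enzymes, the liver X receptor (LXR) pathway and lipid uptake and storage, and every one of the 31 was matched to 1 Ensembl identifier among the 56941 genes of the deposited count tables. By role, 11 belonged to the carnitine shuttle and beta-oxidation, 3 to the electron transfer flavoprotein system, 1 was a coactivator, 6 were Nr1h3 and LXR-controlled genes, 5 served fatty acid binding, uptake and activation, and 5 served droplet storage and lipolysis. None of the 31 encodes an enzyme found only in peroxisomes, so peroxisomal genes were taken from a separate list of 24.

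The cells came from C57BL/6J mice. Animals lacking miR-210 (KO) and their wild-type controls (WT) were bred from heterozygotes whose deletion came from a cross of floxed miR-210 mice to Gata-1 Cre mice. The deletion was therefore inherited and not made in macrophages alone. Monocytes were purified from bone marrow by negative selection and cultured for 7 days in medium with 20% fetal bovine serum and 30% L929-conditioned medium, a source of M-CSF. The resulting macrophages were then kept without added interleukin-4 (IL-4) (M0) or given 20 ng/mL IL-4 for 72 hours (M2). The 4 groups, WT M0, KO M0, WT M2 and KO M2, held 3 libraries each. The age of the mice was not given in the sources used here, nor whether the libraries of a group came from separate animals, so the p-values measure the spread between these libraries only. The batch label of each library only repeated its genotype and state, and whether it marks a processing batch was not given in the sources used here. If it does, batch cannot be told apart from group.

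The libraries held from 7930525 to 10167695 counts, of which 0.640% to 0.807% fell on the 31 genes. The transcript of the miR-210 gene itself, Mir210, was counted 1, 3 and 5 times in WT M0, 1, 2 and 1 times in WT M2, and 0 times in each of the 6 KO libraries. The labels and this transcript therefore do not conflict, although 5 counts at most is a thin base. Apart from the sequencing, the authors reported genotyping of the mice by PCR and absence of miR-210 from KO M0 macrophages by real-time PCR.

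Fatty acids enter the mitochondrial matrix as carnitine esters, made by Cpt1a on the outer membrane, carried by Slc25a20 and released by Cpt2. Inside, acyl-CoA dehydrogenases of different chain lengths, the trifunctional protein Hadha/Hadhb, Hadh and the thiolase Acaa2 shorten the chain step by step, and the electron transfer flavoprotein (Etfa, Etfb) and its dehydrogenase Etfdh pass the electrons to the respiratory chain. LXR alpha, encoded by Nr1h3, responds to oxysterols and induces the exporters Abca1 and Abcg1 together with Apoe, the ubiquitin ligase Mylip, and the phospholipid remodelling enzyme Lpcat3. Alternatively activated macrophages are known for their use of fatty acid oxidation.

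The sequences below are shown because they give the 3p strand of the deleted microRNA and the only match to its seed found among these genes. The 5p strand was not searched. Mature miR-210-3p is given 5′ to 3′ from RefSeq (GRCm38.p6, chr7:141221407-141221428, minus strand), with its seed, bases 2 to 8, in capitals.
miR-210-3p: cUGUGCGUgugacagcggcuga
A microRNA seed pairs with its reverse complement in a 3′ UTR. The longest annotated 3′ UTR of each gene (GENCODE, GRCm39) was searched for that complement, and 1 of 31 held it, against 4.21% of 20948 protein-coding genes. The match lay in the 3′ UTR of Acadm, the medium-chain acyl-CoA dehydrogenase, at chr3:153641481-153641487 on the minus strand, and is shown in capitals within its surroundings.
Acadm site: tgcttcagagcACGCACAgacccccagc
Acadm was not called between genotypes (log2 fold change KO over WT 0.00 ± 0.10 in M0 and 0.02 ± 0.07 in M2, SE, edgeR adjusted p of 1 and 0.95, 3 libraries per group). A seed match is a description of these letters and not evidence of binding.

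All 8 macrophage markers were present in every library. Levels are given as normalised read counts, that is counts scaled by TMM (edgeR's trimmed mean of M values) to a common library size, and Lyz2, the most abundant, stood at 47159 ± 931 in WT M0 and 36179.7 ± 443 in WT M2 (SD, n = 3). By the test described below, 1 of the 8 rose and 4 fell on IL-4 in WT, beside 23.6% higher and 21.8% lower of all genes. In KO 0 rose and 5 fell, beside 18.5% and 18.1%. Fcgr1, a high-affinity IgG receptor, had a log2 fold change of -2.97 ± 0.12 in WT and -2.59 ± 0.15 in KO (SE, edgeR adjusted p = 4.7e-10 and 2.6e-08). Mertk, a receptor for apoptotic cells, had -1.33 ± 0.07 and -0.90 ± 0.09 (adjusted p = 4.3e-09 and 5.4e-06), and Lyz2 and Cd14 fell in both genotypes and Adgre1 in KO. Itgam rose in WT (0.62 ± 0.09, adjusted p = 8.6e-05) and was not called in KO (0.21 ± 0.07). Csf1r and Cd68 were not called in either. Of the M2 markers, Mrc1 lay between 13294 and 18552 in M0 and between 22790.1 and 29775 in M2. Retnla was at 0 counts in all 6 M0 libraries and at 2448 or above in all 6 M2 libraries. Chil3 was at 3.45 in 1 M0 library, at 0 in the other M0 libraries and at 13225 or above in M2. Of the 6 adipocyte markers, 5 had at most 3 counts in every library, with Lep and Cfd at 0 throughout, and Adipoq, the most abundant, reached 9.98. The summed level of that list ran from 1 to 2 in M0 and from 5 to 10 in M2. Neutrophil markers summed to at most 51, erythroid markers to at most 45, and fibroblast markers to at most 23 in any library. T and B cell markers summed to between 59 and 96, nearly all from Cd79b, with Cd3e and Ms4a1 at 0. The dendritic cell list summed to between 4 and 10 in M0 and between 93 and 162 in M2. The transcription factor Zbtb46 had raw counts of 2 to 6 in the M0 libraries and made up almost all of the M2 sum, at 88 to 143, whereas Flt3 was at 0 in every M2 library. The share of counts from the mitochondrial chromosome was 0.894% to 0.968% in the M0 libraries and 1.02% to 1.18% in the M2 libraries, which do not overlap. The part of these marker changes, low-level transcripts and mitochondrial shares in the results below was not tested.

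The first question was how the lipid genes differed between M2 and M0 macrophages. A gene was called when its Benjamini-Hochberg adjusted p in edgeR's quasi-likelihood test was below 0.05 and it differed by more than 1.2-fold in either direction. For the IL-4 response, calls were made among protein-coding genes with an average normalised count above 10. In WT cells 18 of the 30 lipid genes tested were higher in M2 and 4 were lower, beside 23.6% and 21.8% of all 11134 genes compared. In KO cells the numbers were again 18 higher and 4 lower, beside 18.5% and 18.1% of 11116 genes. The median log2 fold change over the 30 was 0.38 in WT and 0.42 in KO, against 0.00 and -0.01 over all genes in each fit. Dgat2 had at most 9 counts in any library and was not tested. The 2 comparisons share no libraries, and 15 of the 30 lipid genes were called higher in both and 4 lower in both, beside 16.6% and 14.7% of the 11050 genes compared in both. None was called in opposite directions, beside 0.0543%. In bulk RNA a change in cell composition and a change in RNA per cell cannot be told apart.

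**Figure D1:**
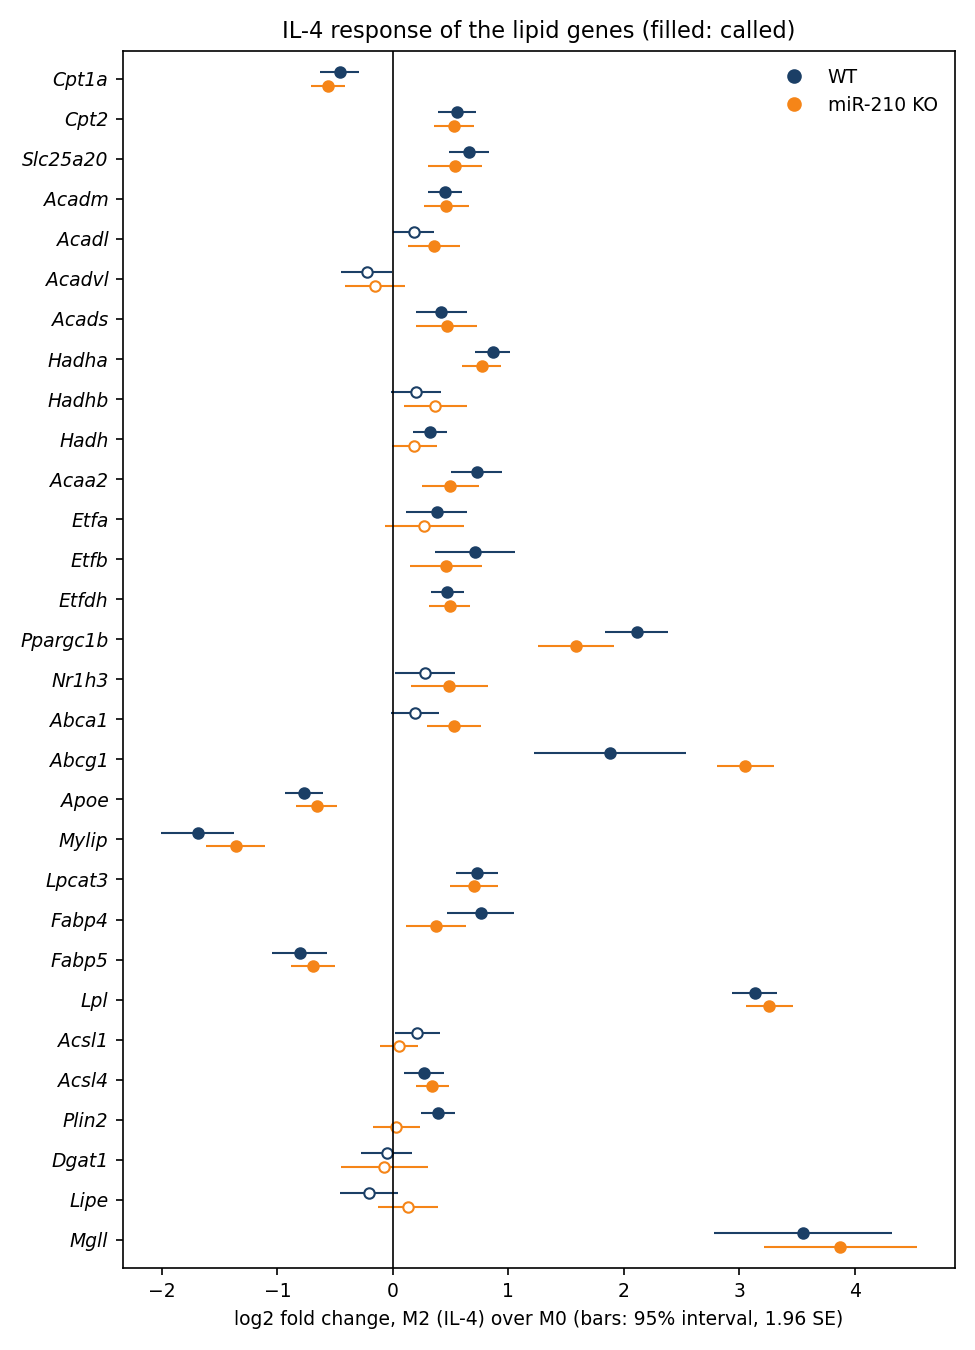
Log2 fold change of M2 over M0 (x axis) for the 30 lipid genes tested, in WT (blue) and miR-210 KO (orange). Each group held 3 libraries. Bars are approximate 95% intervals, taken from the SE and a normal distribution and not from the test. Some exclude 0 where the test gave an unadjusted p of 0.05 or more, as for Nr1h3 in WT. The bars are narrower there than the test allows. Filled points were called. Lpl and Mgll lie above 3 in both genotypes, and Cpt1a, Apoe, Mylip and Fabp5 lie below 0 in both.

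Within the carnitine shuttle and beta-oxidation genes, 7 of 11 rose and 1 fell in each genotype, beside 23.6% higher and 21.8% lower of all genes in WT and 18.5% and 18.1% in KO. The gene that fell was Cpt1a, which makes the acylcarnitine that enters the mitochondrion and is regarded as the controlled step of long-chain oxidation. Its normalised counts were 709, 835 and 771 in WT M0 against 572, 599 and 505 in WT M2. In KO they were 867, 933 and 882 in M0 and 588, 597 and 632 in M2. M2 libraries lay below M0 libraries in both genotypes without overlap, with log2 fold changes of -0.46 ± 0.08 in WT (SE, edgeR adjusted p = 5.4e-04) and -0.56 ± 0.08 in KO (adjusted p = 8.7e-05). The 2 shuttle genes downstream of it moved the other way.

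Cpt2, on the inner membrane, counted 260.1, 242 and 287 in WT M0 against 379, 392 and 384 in WT M2, and 289, 285 and 289 in KO M0 against 406, 445 and 394 in KO M2. The carnitine/acylcarnitine carrier Slc25a20 counted 208, 193 and 229.6 in WT M0 against 321, 337 and 338 in WT M2, and 264, 197 and 231 in KO M0 against 360.3, 345 and 296 in KO M2. For both genes every M2 library was above every M0 library of its genotype. Cpt2 was 1.47-fold higher in WT and 1.44-fold in KO (edgeR adjusted p = 1.1e-04 and 4.2e-04), and Slc25a20 was 1.58-fold and 1.45-fold higher (adjusted p = 3.4e-05 and 0.0036).

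Hadha, the alpha subunit of the trifunctional protein, had the largest change among the beta-oxidation enzymes. It counted 529, 485 and 544 in WT M0 against 915, 1023 and 883 in WT M2, and 571, 522 and 513 in KO M0 against 937, 969 and 826 in KO M2. The groups of each genotype did not overlap, and the log2 fold changes were 0.86 ± 0.08 in WT (SE, edgeR adjusted p = 7.3e-07) and 0.77 ± 0.09 in KO (adjusted p = 1.8e-05). Its partner subunit Hadhb, transcribed from the opposite strand of the same locus, counted 219.8, 196 and 185 in WT M0 against 256, 229.8 and 200.5 in WT M2, which overlap. Hadhb was not called in either genotype (log2 fold changes 0.20 ± 0.11, adjusted p = 0.15, and 0.37 ± 0.14, adjusted p = 0.057). In KO it was called higher with DESeq2's size factors in edgeR, without a filter on low counts, in 1 fit of all 12 libraries and without KO M0 library 2. The 2 genes overlap on opposite strands, and the counting was strand-specific.

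The thiolase Acaa2, which splits off acetyl-CoA, counted 158, 137 and 159 in WT M0 against 244, 278 and 222 in WT M2, a 1.65-fold rise (edgeR adjusted p = 1.1e-04), and rose 1.41-fold in KO (adjusted p = 0.0081), a call lost without KO M2 library 2. Among the acyl-CoA dehydrogenases, Acadm rose 1.37-fold in WT and 1.38-fold in KO (adjusted p = 2.2e-04 and 0.0025), and the short-chain enzyme Acads 1.34-fold and 1.38-fold (adjusted p = 0.0071 and 0.018). The KO call of Acads was lost without KO M0 library 2 or KO M2 library 1. The long-chain enzyme Acadl passed the test in KO only (log2 fold change 0.36 ± 0.11, adjusted p = 0.027, against 0.18 ± 0.09, adjusted p = 0.12, in WT), and that call was lost without any 1 of 4 of the 6 libraries and with scaling by library totals only. Hadh, the short-chain 3-hydroxyacyl-CoA dehydrogenase, passed in WT only (0.32 ± 0.08, adjusted p = 0.0036, against 0.19 ± 0.10, adjusted p = 0.18), and without KO M0 library 1 it was called in KO too. Neither difference between the genotypes was called, with interaction values of 0.18 ± 0.15 for Acadl and -0.13 ± 0.12 for Hadh (adjusted p = 0.77 and 0.80).

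The very-long-chain dehydrogenase Acadvl was the other beta-oxidation gene with a negative value. It counted 162, 146 and 149.7 in WT M0 against 131, 119 and 139 in WT M2, and 160.2, 164 and 138 in KO M0 against 129.7, 157 and 127 in KO M2. Its log2 fold changes of -0.23 ± 0.11 and -0.15 ± 0.13 were not called (edgeR adjusted p = 0.11 and 0.42). In size, the called changes of the beta-oxidation group stayed below 1 on the log2 scale in both genotypes.

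**Figure D2:**
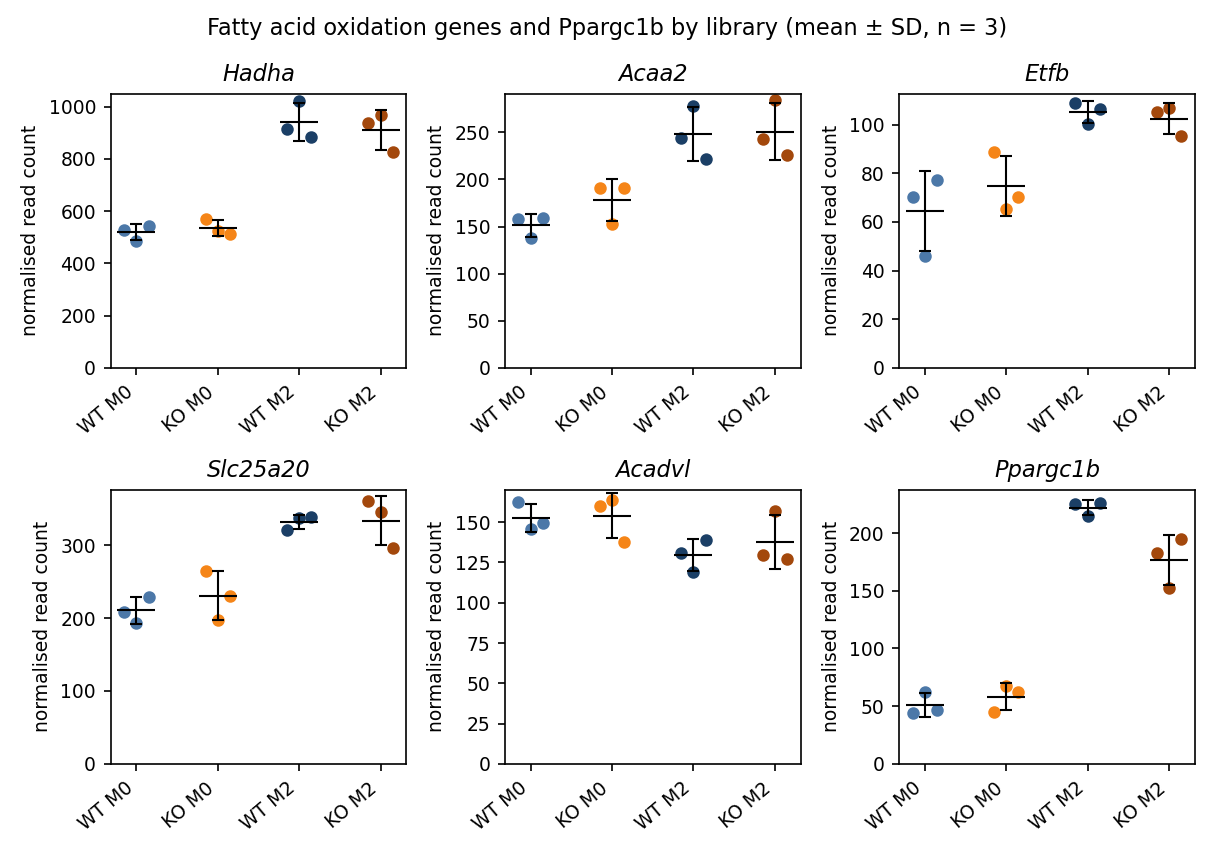
Normalised read counts (y axis, linear, from 0) of 5 oxidation genes and Ppargc1b in each of the 12 libraries, with the mean and SD of each group (n = 3). Hadha and Ppargc1b are higher in every M2 library than in any M0 library, whereas the M0 and M2 points of Acadvl lie close together.

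Of the electron transfer genes 3 of 3 rose in WT and 2 of 3 in KO, beside 23.6% and 18.5% of all genes. Etfdh, the membrane dehydrogenase, rose 1.39-fold and 1.41-fold (edgeR adjusted p = 1.1e-04 and 0.0010). The beta subunit Etfb counted 70.2, 45.8 and 77.1 in WT M0 against 109, 100.1 and 106 in WT M2, with a log2 fold change of 0.72 ± 0.18 (adjusted p = 0.0044), and 0.46 ± 0.16 in KO (adjusted p = 0.041). The alpha subunit Etfa had 0.38 ± 0.14 in WT (adjusted p = 0.035) and 0.27 ± 0.18 in KO (adjusted p = 0.26). The WT call of Etfa was lost without any 1 of 5 of the 6 libraries, and the KO call of Etfb likewise. Both were also lost with DESeq2 and with scaling by library totals only, and Etfa without a filter on low counts and in 1 fit of all 12 libraries.

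Ppargc1b encodes PGC-1 beta, a coactivator of nuclear receptors that is known to raise oxidative metabolism. It counted 43.7, 62.6 and 46.8 in WT M0 against 225, 214 and 226 in WT M2. In KO it counted 45.3, 67.2 and 62.2 in M0 and 183, 152 and 195 in M2. The M2 libraries of both genotypes lay far above the M0 libraries, and the 3 KO M2 libraries lay below the 3 WT M2 libraries. The log2 fold change on IL-4 was 2.11 ± 0.14 in WT (SE, edgeR adjusted p = 3.4e-08) and 1.59 ± 0.17 in KO (adjusted p = 9.3e-06). Between genotypes in M2 it was -0.33 ± 0.10 (adjusted p = 0.21), and the interaction was -0.52 ± 0.23 (unadjusted p = 0.035, adjusted p = 0.51), so neither was called. The gene also contains Mir378a, which was counted on its own.

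Of the 6 LXR genes, 2 rose and 2 fell in WT, beside 23.6% and 21.8% of all genes, and 4 rose and 2 fell in KO, beside 18.5% and 18.1%. Nr1h3 itself stood at a low level, with 108, 86.9 and 106 in WT M0 against 112, 132 and 119 in WT M2 (log2 fold change 0.28 ± 0.13, edgeR adjusted p = 0.098). In KO it counted 96.7, 81.0 and 95.5 in M0 and 149, 136 and 97.4 in M2 (0.49 ± 0.17, adjusted p = 0.041). The KO call was lost without any 1 of 4 of the 6 libraries, with DESeq2 and with scaling by library totals only, which leaves 3 of the 6 LXR genes higher. It overlaps Acp2 on the opposite strand, a gene with 39566 counts over the 12 libraries against 1311 for Nr1h3.

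Abcg1, which exports cholesterol to high-density lipoprotein (GRCm39 chr17:31276649-31336969), was the LXR gene with the largest rise. It counted 1889, 435 and 895 in WT M0, a spread of over 4-fold, and 430.2, 390.1 and 520.0 in KO M0. In M2 it counted 3477, 4196 and 4026 in WT and 4214, 3677 and 3220.0 in KO. Every M2 library was above every M0 library, and the WT M0 libraries reached from within the KO M0 range to well above it. The log2 fold change on IL-4 was 1.88 ± 0.34 in WT (edgeR adjusted p = 4.2e-04) and 3.05 ± 0.13 in KO (adjusted p = 1.9e-09). Without WT M0 library 1, the WT value was 2.56, and without library 2 it was 1.504.

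Abca1, the exporter to lipid-poor apolipoprotein A-I, counted 7459, 5685 and 5759.6 in WT M0 against 6318, 7349 and 7879.7 in WT M2, which overlap. In KO it counted 3831, 4944 and 5044 in M0 and 7710.1, 6423 and 5869 in M2, which do not. It was called in KO (log2 fold change 0.53 ± 0.12, edgeR adjusted p = 0.0035) and not in WT (0.19 ± 0.11, adjusted p = 0.15), although without WT M0 library 1 it was called higher in WT too. The interaction of 0.34 ± 0.18 was not called (adjusted p = 0.60). Lpcat3 rose 1.66-fold in WT and 1.63-fold in KO (adjusted p = 2.7e-05 and 2.1e-04).

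Apoe and Mylip fell. Apoe, the lipid-carrying apolipoprotein secreted by macrophages, counted 42692, 33649.6 and 37281 in WT M0 against 21579, 22863 and 21867 in WT M2, and 40686, 34537 and 38424 in KO M0 against 25868, 24332 and 21631 in KO M2. It fell by 0.77 ± 0.08 on the log2 scale in WT (SE, edgeR adjusted p = 5.6e-06) and by 0.66 ± 0.09 in KO (adjusted p = 7.1e-05). Mylip counted 1473, 879 and 1232 in WT M0 against 319, 441 and 338 in WT M2, and 948, 935 and 1052 in KO M0 against 457, 392 and 291 in KO M2. It fell by 1.69 ± 0.16 in WT (adjusted p = 1.5e-06) and by 1.36 ± 0.13 in KO (adjusted p = 3.7e-06). For both genes M2 libraries lay below M0 libraries without overlap. WT M0 library 1 was the highest of its group, and library 2 the lowest, in Abca1, Abcg1, Apoe, Mylip, Fabp4 and Fabp5.

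**Figure D3:**
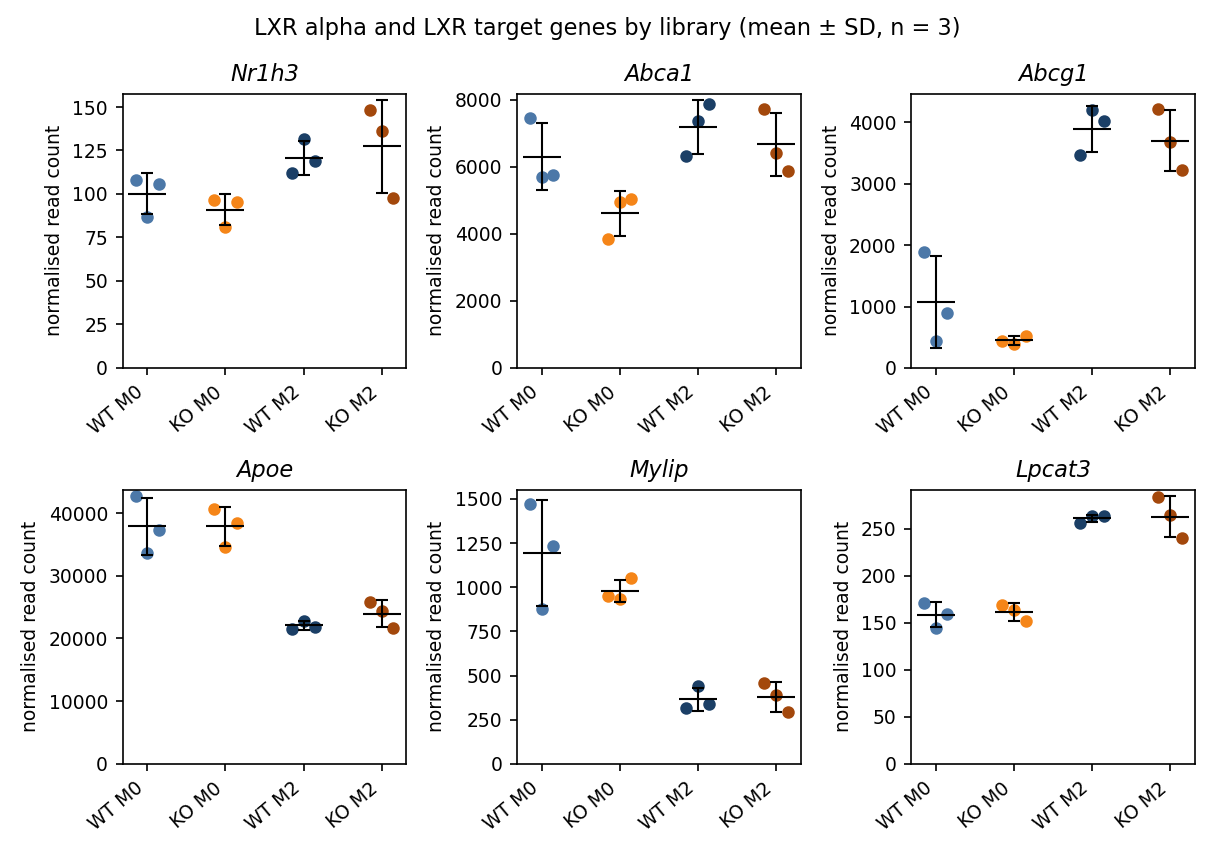
Normalised read counts (y axis, linear, from 0) of Nr1h3 and 5 LXR-controlled genes in each of the 12 libraries, with the mean and SD of each group (n = 3). Abcg1 and Lpcat3 are higher in M2 and Apoe and Mylip lower, and the WT M0 points of Abcg1 spread from 435 to 1889.

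The largest changes were in uptake and hydrolysis. Lpl, lipoprotein lipase, releases fatty acids from lipoprotein triglyceride and lies at GRCm39 chr8:69284603-69360100. It counted 2418, 2344 and 2396 in WT M0 against 20147, 18224 and 24234 in WT M2. In KO it counted 1762, 1821 and 1473 in M0 and 15795, 15101 and 17632 in M2. All M2 libraries were far above all M0 libraries, and in each state the 3 KO libraries lay below the 3 WT libraries. The rise was 8.78-fold in WT (log2 fold change 3.13 ± 0.10, edgeR adjusted p = 3.4e-11) and 9.60-fold in KO (3.26 ± 0.10, adjusted p = 1.8e-10).

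Mgll, monoacylglycerol lipase, which completes the breakdown of triglyceride and also degrades the endocannabinoid 2-arachidonoylglycerol, lies at GRCm39 chr6:88652108-88805342. It had raw counts of 3, 9 and 1 in WT M0 and 2, 4 and 5 in KO M0, against 50, 44 and 54 in WT M2 and 38, 63 and 45 in KO M2. It was near the floor in M0 and clearly present in M2, with log2 fold changes of 3.55 ± 0.39 in WT (edgeR adjusted p = 5.9e-06) and 3.88 ± 0.34 in KO (adjusted p = 1.5e-06). Without WT M0 library 2, the one with 9 counts, the WT value was 4.58, and without library 3 it was 3.04. Even in M2 it was a minor transcript, at a length-scaled level of 0.928 ± 0.167 in WT (counts per kilobase of exon and per 1000000 TMM-scaled counts, SD, n = 3), where Lpl stood at 189 ± 27.7 on the same scale. Mgll overlaps several unconfirmed transcripts with at most 16 counts each.

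The fatty acid binding proteins moved in opposite directions. Fabp4, abundant in adipocytes and lipid-loaded macrophages, counted 443, 247 and 369 in WT M0 against 616, 582 and 575 in WT M2, and rose by a log2 fold change of 0.76 ± 0.15 (edgeR adjusted p = 8.0e-04). In KO it counted 550.0, 378 and 439 in M0 and 566, 667 and 533 in M2. These libraries overlap, and the KO value of 0.38 ± 0.13 (adjusted p = 0.043) lost its call without any 1 of 4 of the 6 libraries, with scaling by library totals only and in 1 fit of all 12 libraries. Fabp5, the epidermal type, counted 3880.1, 2524 and 3137 in WT M0 against 1856, 1909.5 and 1655 in WT M2. It fell by 0.81 ± 0.12 on the log2 scale in WT (adjusted p = 9.4e-05) and by 0.69 ± 0.10 in KO (adjusted p = 9.7e-05), with no overlap in either.

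The acyl-CoA synthetases, which activate fatty acids, changed little. Acsl1 had log2 fold changes of 0.21 ± 0.10 and 0.05 ± 0.09 (edgeR adjusted p = 0.097 and 0.68) and was called in WT without WT M0 library 1. Acsl4, which prefers arachidonate, had 0.27 ± 0.09 in WT (adjusted p = 0.023) and 0.34 ± 0.07 in KO (adjusted p = 0.0030). Its WT call was lost without any 1 of 3 of the 6 libraries and with scaling by library totals only.

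Plin2 coats lipid droplets and was the most abundant droplet gene. It counted 4289, 3703 and 4409.7 in WT M0 and 5907, 4462 and 5248 in KO M0. In M2 it counted 5409.6, 5617 and 5140.0 in WT and 5444, 5706 and 4788 in KO. The WT M0 libraries lay below the libraries of the other 3 groups, which overlapped each other. It rose by 0.39 ± 0.07 on the log2 scale in WT (edgeR adjusted p = 7.3e-04), with 0.03 ± 0.10 in KO (adjusted p = 0.86). The interaction was -0.35 ± 0.14 (unadjusted p = 0.020, adjusted p = 0.42) and was not called. Dgat1, which makes triglyceride, and Lipe, hormone-sensitive lipase, were not called in either genotype, with values between -0.21 and 0.13.

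**Figure D4:**
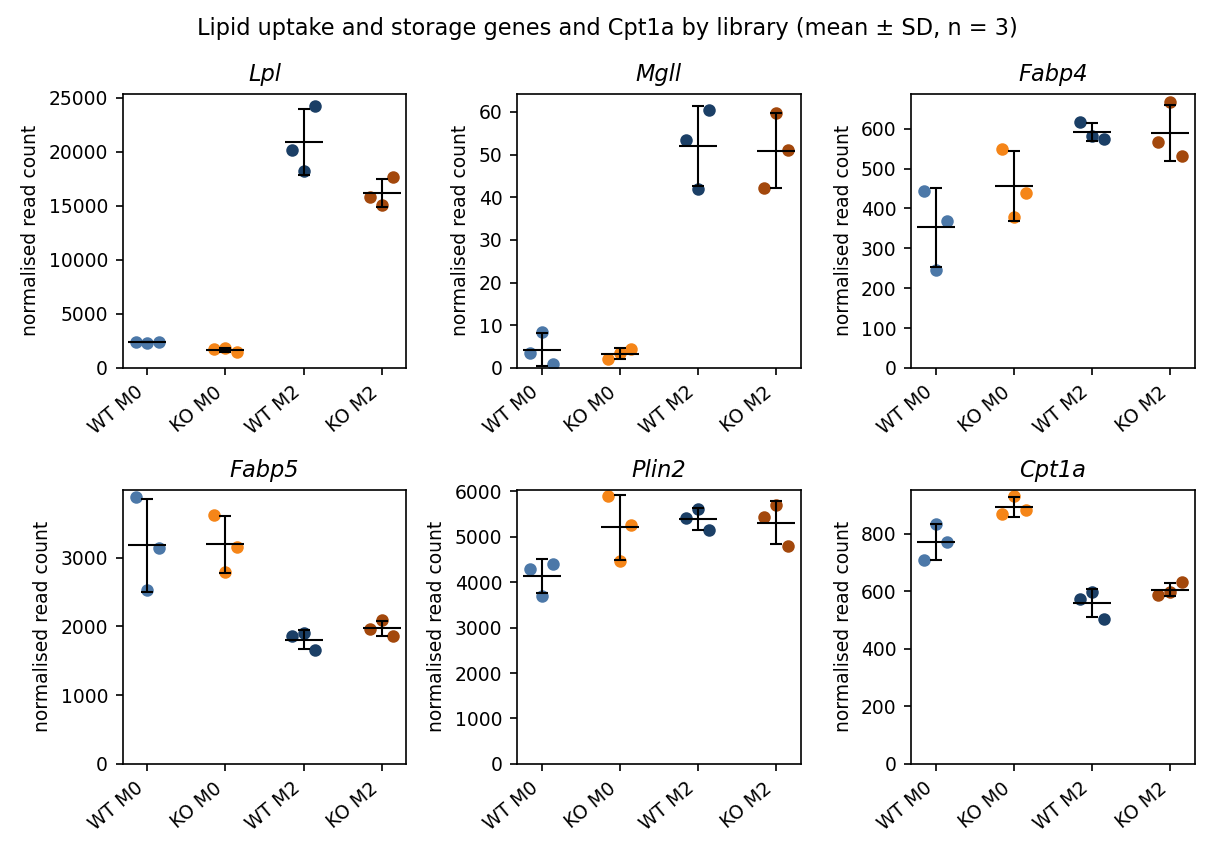
Normalised read counts (y axis, linear, from 0) of Lpl, Mgll, Fabp4, Fabp5, Plin2 and Cpt1a in each of the 12 libraries, with the mean and SD of each group (n = 3). Lpl lies between 1473 and 2418 in M0 and between 15101 and 24234 in M2, with KO below WT in each state, and Cpt1a and Fabp5 are lower in M2.

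Per kilobase of annotated exon, Apoe was by far the most abundant of the 31 genes in every group. The length counted all annotated exons of a gene over its transcripts, so the order below also depends on the annotation. Its length-scaled level was 1034 ± 124 in WT M0 and 603 ± 18.4 in WT M2 (SD, n = 3). In WT M0 it was followed by Fabp5 at 95.8 ± 20.5, Plin2 at 59.5 ± 5.44 and Abca1 at 56.7 ± 9.03, of which Plin2 and Abca1 did not differ beyond their spread. In WT M2 the second place was taken by Lpl at 189 ± 27.7, ahead of Plin2 at 77.5 ± 3.44, Abca1 at 64.7 ± 7.15, Abcg1 at 55.9 ± 5.38 and Fabp5 at 54.5 ± 4.04, the last 2 within their spread. The beta-oxidation genes were lower, from 1.41 (Hadhb) to 10.6 (Acadl) in WT M0 and from 1.61 (Hadhb) to 12.3 (Cpt2) in WT M2. Hadhb was divided by 15733 exon bases, and Acadvl, which had fewer counts, by 3937. Summed over the 11 genes, normalised counts ran from 3458 to 3730 in the M0 libraries and from 4242 to 4571 in the M2 libraries.

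The second question was whether the loss of miR-210 altered these genes. Here every gene in the fit could be called, with the same limits on adjusted p and fold. In M0, 29 were tested, 0 were called higher and 1 lower, beside 0.22% and 0.241% of 14089 genes. In M2, 0 of 30 were called in either direction, beside 0.408% higher and 0.572% lower of 13980 genes. At an unadjusted p under 0.05 there were 6 in M0 and 2 in M2, beside 10% and 10.7% of all genes. DESeq2 called 2 in M0 (Abca1 and Lpl, both lower) and 1 in M2 (Lpl, lower), beside 0.795% and 0.587% of all genes called lower.

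The gene called in M0 was Lpl, with a log2 fold change of -0.50 ± 0.09 (edgeR adjusted p = 0.042). All 3 KO M0 libraries, at 1762, 1821 and 1473, lay below the WT M0 libraries, at 2418, 2344 and 2396. In M2 Lpl had -0.36 ± 0.08 (adjusted p = 0.051), again with every KO library below every WT library. The interaction was 0.13 ± 0.14 (adjusted p = 0.82). Its approximate 95% interval, taken from the SE and a normal distribution, ran from -0.14 to 0.41 and can be too narrow. The M0 call was lost without WT M0 library 1 or 3 or KO M0 library 1 or 3 (adjusted p between 0.094 and 0.25), while the value stayed between -0.42 and -0.56 in all 6 fits that left out 1 library. Scaling by library totals only also lost the M0 call (-0.499, edgeR adjusted p = 0.054). In M2 the call was gained without WT M2 library 2 (edgeR adjusted p = 0.0052) or KO M2 library 3 (0.0085). It stayed absent in the other 4 fits that left out 1 library (0.11 to 0.31) and in 1 fit of all 12 libraries (0.17). Over all these settings the M2 value lay between -0.455 and -0.24. The M2 call was also gained with scaling by library totals only (edgeR adjusted p = 0.032) and with at least 10 counts in every library of a group (0.048). The fit without a filter on low counts called it too, but at 3.1e-11, an implausibly small edgeR adjusted p for 3 libraries per group.

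Among the cholesterol exporters, Abca1 had -0.45 ± 0.13 in M0 (edgeR adjusted p = 0.21), with the KO libraries below the WT libraries. Abcg1 had -1.26 ± 0.38 (adjusted p = 0.24), and its WT libraries overlapped the KO libraries. Without WT M0 library 2, Abcg1, Mylip and Lpl were called lower in KO M0, in a fit that called 302 genes in place of 65. In M2 these exporters had -0.10 ± 0.09 and -0.07 ± 0.08 (adjusted p = 0.76 and 0.85). Plin2 had 0.33 ± 0.11 in M0 (adjusted p = 0.29) and Cpt1a 0.21 ± 0.09 (adjusted p = 0.43), both with the KO libraries above the WT libraries. For the other beta-oxidation genes the values lay between -0.15 and 0.24 in M0, and for all 11 between -0.06 and 0.12 in M2.

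**Figure D5:**
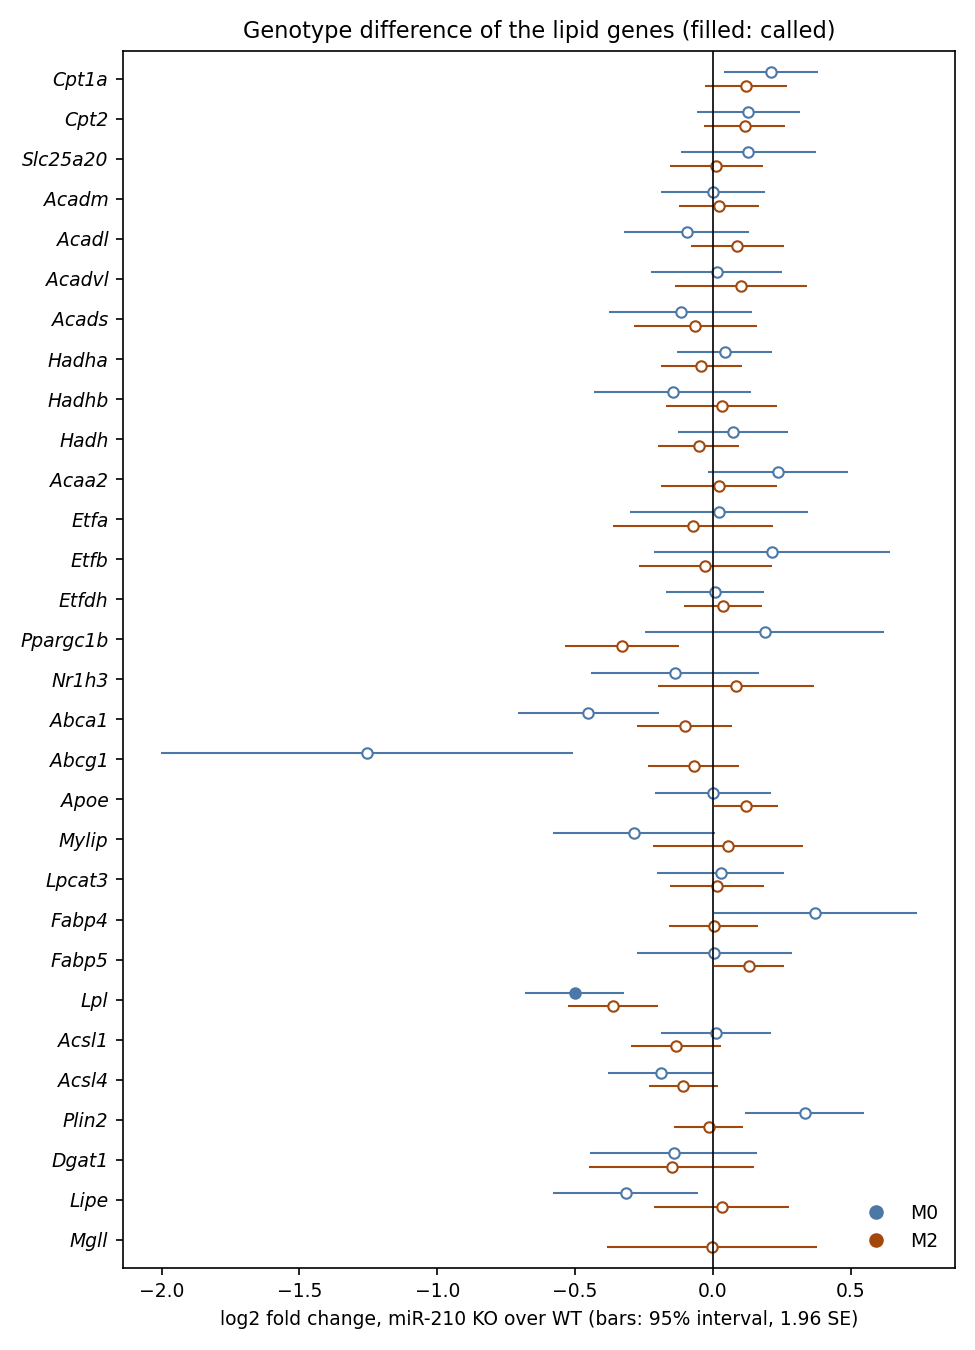
Log2 fold change of miR-210 KO over WT (x axis) for the lipid genes in M0 (blue) and M2 (brown), 3 libraries per group. Bars are approximate 95% intervals, taken from the SE and a normal distribution and not from the test, and can be too narrow. The filled point, Lpl in M0 at -0.50, is the only call, and the beta-oxidation genes lie around 0. Mgll was not tested in M0.

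The third question was whether the IL-4 response differed between genotypes. In a fit of all 12 libraries, where a call needed only an adjusted p below 0.05, 0 of 30 lipid genes were called, beside 0% of 14825 genes. DESeq2 also called 0 of them, beside 0.499% of all genes. At an unadjusted p under 0.05 there were 3 of the 30, beside 8.95% of all genes. The 3 were Abcg1 at 1.18 ± 0.44 (edgeR adjusted p = 0.39), Ppargc1b and Plin2. Abcg1 was called only when WT M0 library 2 was left out, with 65 genes called in all, or when low counts were not filtered, with 341, where Plin2 was called too. The unfiltered fit also gave implausibly small p-values for Abcg1 on IL-4, given in the last section. Genes that passed the test in 1 genotype only (Hadh, Etfa and Plin2 in WT, Acadl, Nr1h3 and Abca1 in KO) were therefore not shown to differ between them.

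Other genes of the same pathways were taken from lists, whose counts stand beside the 23.6% higher and 21.8% lower of all genes in WT and the 18.5% and 18.1% in KO. Of 23 further mitochondrial oxidation genes, 20 were tested in WT on IL-4, 9 rose and 3 fell, and 5 rose and 3 fell in KO. Crat, carnitine acetyltransferase, rose most, with 509, 496 and 524 counts in WT M0 against 864, 989 and 1006 in WT M2 (log2 fold change 0.91 ± 0.07, edgeR adjusted p = 3.2e-07). It was followed by Hsd17b10, a mitochondrial hydroxyacyl-CoA dehydrogenase (0.72 ± 0.11), and the acyl-CoA dehydrogenase Acad11 (0.44 ± 0.09), which is also known from peroxisomes. Acad10 (-0.59 ± 0.15), Acat1 (-0.36 ± 0.08), the acetoacetyl-CoA thiolase, and the thioesterase Acot13 (-0.28 ± 0.11) fell.

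Of the peroxisomal list 22 were tested, 3 rose and 2 fell in WT, and 4 rose and 1 fell in KO. The WT numbers are below the shares of all genes, 23.6% and 21.8%. Abcd2, which imports very-long-chain acyl-CoA into peroxisomes, counted 353, 363 and 356 in WT M0 against 1396, 1435 and 1241 in WT M2 (log2 fold change 1.93 ± 0.08, edgeR adjusted p = 2.7e-10). Pex11g (1.06 ± 0.24) and the thiolase Acaa1a (0.28 ± 0.07) rose, and Pex5, the import receptor (-0.50 ± 0.08), and Phyh, phytanoyl-CoA hydroxylase (-0.38 ± 0.09), fell. In both genotypes 17 of the 22 were not called.

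Among 14 PPAR genes and shared targets 10 were tested, 3 rose and 2 fell in WT, and 2 rose and 2 fell in KO, which is near the shares of all genes. Pparg, the receptor known from alternative activation and adipocytes, counted 201, 145 and 202 in WT M0 against 811, 783 and 646 in WT M2, with log2 fold changes of 2.04 ± 0.12 in WT (edgeR adjusted p = 1.5e-08) and 2.63 in KO (adjusted p = 9.6e-10). Angptl4, a secreted inhibitor of lipoprotein lipase, had 1.44 ± 0.38 in WT, from at most 11.9 counts in M0, and 0.43 in KO (adjusted p = 0.28). Ucp2 rose in WT (0.40 ± 0.06), and the retinoid X receptor Rxra (-0.44 ± 0.07) and the coactivator Pprc1 (-0.57 ± 0.12) fell.

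Of 20 further uptake, binding and activation genes, 17 were tested, 8 rose and 0 fell in WT, and 7 rose and 0 fell in KO. In WT, Fabp7 rose by a log2 fold change of 1.44 ± 0.19 (SE) and the acyl-CoA binding protein Dbi by 1.28 ± 0.12.

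Of 29 further storage and lipolysis genes, 19 were tested, 7 rose and 1 fell in WT, and 6 rose and 2 fell in KO. G0s2, an inhibitor of adipose triglyceride lipase (0.94 ± 0.23), Agpat3 (0.79 ± 0.08) and the hypoxia-inducible droplet protein Hilpda (0.69 ± 0.13) rose most in WT. Lpin2, a phosphatidate phosphatase, counted 2472, 2670.2 and 2487 in WT M0 against 1037, 1049 and 1042 in WT M2 (-1.28 ± 0.06, edgeR adjusted p = 2.0e-09). Of 20 further efflux and LXR genes, 16 were tested, 6 rose and 4 fell in WT, and 4 rose and 4 fell in KO. Ch25h, which makes the LXR ligand 25-hydroxycholesterol, rose by 2.05 ± 0.17, Srebf1 by 0.87 ± 0.09 and Lpcat1 by 0.70 ± 0.06, and Smpdl3a (-1.44 ± 0.10), the sterol 27-hydroxylase Cyp27a1 (-0.61 ± 0.11) and Lpcat2 (-0.50 ± 0.14) fell.

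Between genotypes, Agpat4, an acyltransferase of phospholipid synthesis, was the only gene of these further lists that was called. It counted 197, 205 and 207 in WT M0 and 312, 293 and 332 in KO M0 (log2 fold change 0.62 ± 0.10, SE, edgeR adjusted p = 0.018). In M2 it counted 212, 220.2 and 218 in WT and 204, 228 and 206 in KO, which overlap (adjusted p = 0.97). Its interaction was -0.65 (unadjusted p = 7.2e-05, adjusted p = 0.095). None of these further genes was called by the interaction.

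RefSeq promoter sequences of 300 bases (GRCm38.p6, from 250 bases before to 50 after the start) were found for 23 of the 31 genes and searched on both strands. Abcg1, Acaa2, Dgat1, Dgat2, Fabp4, Fabp5, Lpl and Ppargc1b had no entry in the table used and were not searched. No promoter of the 23 held a pair of AGGTCA copies in the same direction 4 bases apart, the arrangement bound by LXR, or 1 base apart, that bound by PPAR, even with 1 mismatch in all, and none held a STAT6 motif, TTC followed by GAA after 4 bases of any kind. Among 32851 promoters of the same length the shares were 0.0152% and 0.0396% for exact pairs, 0.25% and 0.554% with up to 1 mismatch, and 6.95% for the STAT6 motif. The absence says only that these letters are not in these windows.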

How the data were processed

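Total RNA of 12 macrophage cultures was sequenced as ribosomal RNA-depleted, stranded paired-end libraries. The authors trimmed reads with Trimmomatic, removed duplicates with Picard, aligned to GRCm39 with STAR and counted per gene with featureCounts, and deposited 4 tables of raw counts, 1 per pair of groups. The deposited normalised counts (a signal: raw counts divided by 1 DESeq2 size factor per library, set separately for each pair of groups) served only as an alternative for the summed levels of each group of lipid genes. Each library stood in 2 count tables with identical values and was used once.

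Counts were tested with edgeR 4.0.16 (TMM, filterByExpr, quasi-likelihood), with Benjamini-Hochberg adjustment over all genes tested, per pair of 6 libraries, and over 12 libraries for the interaction. Symbols came from GENCODE for 56323 of 56941 identifiers. Libraries were tied to groups by their column names. The genes and lists were chosen with earlier results of these data known. Named were all 31 genes, the marker lists, the 3 largest called rises and falls per further list on IL-4 in WT, and any further gene called between genotypes. Some genes that this rule names are not reported here. Hadha, Hadhb, Nr1h3 and other overlapping genes rest on strand-specific counting. Simulated counts with known changes were used to test the scripts. Alternatives were DESeq2, other scalings and filters, fold limits, 1 fit of 12 libraries, the library number as a replicate block (added after the data were seen), and leaving out each library.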

Additional observations from a re-analysis of the deposited data

How the results depend on the processing

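No value of a called lipid gene changed sign under any alternative run. The lipid gene counts below show how calls moved between settings. They are not set beside the share of all genes called in that direction. With a log2 fold change over 1 required, 1446 genes were called on IL-4 in WT and 1292 in KO, with 4 lipid genes higher and 1 lower in each, and 27 genes were called between genotypes in M0 (0 lipid genes lower) and 40 in M2. DESeq2 called 4603 genes on IL-4 in WT (17 lipid genes higher) and 3740 in KO (16 higher), with 53% and 52% of the calls higher. Between genotypes it called 215 in M0 (2 lipid genes lower) and 140 in M2 (1 lower), and 74 by the interaction. Scaling by library totals only called 5105 genes on IL-4 in WT (16 lipid genes higher) and 4133 in KO (14 higher), with 46.4% and 45% of the calls higher in place of 51.9% and 50.5%, 64 genes in M0 (0 lipid genes lower) and 165 in M2 (1 lower). Without a filter on low counts, 532 genes were called in M0 (2 lipid genes higher, Fabp4 and Plin2, and 3 lower), 360 in M2 (1 lower) and 341 by the interaction (1 higher, Abcg1, and 1 lower, Plin2). For Abcg1 on IL-4 in WT that fit gave an edgeR adjusted p of 1.1e-136 at 1.898, against 4.2e-04 at 1.881 in the main fit. Such a p-value is implausible for 3 libraries per group, so calls gained there alone carry little weight. A minimum of 10 counts in every library of a group called 146 genes in M2 (1 lipid gene lower), where 137 were called with the default filter. One fit of all 12 libraries called 248 genes in M0 and 60 in M2.

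Leaving out 1 library at a time, the genes called ranged from 4644 to 5022 on IL-4 in WT and from 3387 to 4117 in KO, from 20 (without WT M0 library 3) to 302 (without WT M0 library 2) between genotypes in M0, from 53 (without KO M2 library 2) to 215 (without KO M2 library 3) in M2, and from 0 to 77 (without KO M0 library 2) for the interaction. The lipid genes called higher ranged from 16 to 20 on IL-4 in WT and from 13 to 18 in KO, with 4 lower throughout, and those called lower from 0 to 3 in M0 and from 0 to 1 in M2, with 0 to 1 higher by the interaction. The causes of these shifts were not tested. The sample titles share no numbers between groups, but the columns of the count tables are numbered 1 to 3 in each. The correlations of same-numbered libraries' deviations from their group means, over 14825 genes, ran from -0.27 to 0.34, and 0 to 3 of 6 libraries per comparison correlated best with their own number. Between genotypes in M0 they were 0.11, 0.34 and 0.022, with at most 0.22 for other numbers. In no comparison were all 3 over 0.1, so the number was not taken as a pairing. With it as a replicate block, an alternative chosen after seeing the data, 284 genes were called between genotypes in M0 (1 lipid gene higher, Plin2, and 1 lower, Lpl), 289 in M2 (1 lower, Lpl) and 0 by the interaction. On IL-4 4934 genes were called in WT, with 17 lipid genes higher (not Etfa), and 3757 in KO, with 16 higher (not Etfb and Nr1h3). Summed levels of each group of lipid genes, M2 over M0, moved by less than the spread between libraries with the deposited normalised counts or counts per library total. With 3 libraries per group the standard errors of the lipid genes in M0 averaged 0.14 on the log2 scale.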
